A study of Mus musculus with 6 samples.

Results

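Lcn2, Saa3 and Hp encode secreted proteins of the acute-phase response, and they are 3 of the 2065 genes in a table of RNA levels in MLO-Y4, a mouse cell line that resembles osteocytes (the resident cells of mineralized bone). The genes were found by symbol, and each symbol matched 1 row of the table. They were chosen by their measured difference in mean level between the labels, which heads that table, so this difference is given as a description, with no test; Cxcl5 is the gene just outside the choice. The libraries fall under 2 labels: cells kept at 2% O2 in a hypoxic chamber (3 libraries, replicates 1, 2 and 4) and cells kept at 20% O2 (3 libraries, replicates 2, 3 and 4). Titles give 24 h for every library, while descriptions give 24, 25 and 26 h within each label. All cells are wild type by their label and grew in the same serum-containing medium. The labels do not say that replicates came from separate cultures, so p-values below measure only the spread between these libraries, which may be technical. All 3 genes passed the filter on low values, as did 2056 of the 2065 listed genes.

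The acute-phase response is a change in the secretion of plasma proteins during infection or injury, run mainly by the liver but also by fat, stromal cells and leukocytes. Interleukin 1, tumour necrosis factor and interleukin 17 act through the transcription factor NF-kB, and interleukin 6 and its relatives act through STAT3, while the C/EBP factors act together with both. Lcn2 encodes lipocalin 2, which binds bacterial siderophores and so withholds iron from bacteria; osteoblasts also secrete it, and in mice it has been described as a bone-derived signal to the brain. Saa3 encodes the serum amyloid A form that mice make mainly outside the liver, in macrophages and adipocytes among others. Hp encodes haptoglobin, which binds haemoglobin set free from red cells and hands it to the scavenger receptor Cd163.

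The promoter windows below show where C/EBP motifs lie in the genes whose levels were furthest apart, and in Saa1, a family member near Saa3. They run from 250 bases before the start site to 50 after it, 5′ to 3′ on the gene's strand, from RefSeq on build GRCm38.p6; 2 of the 3 genes matched an entry by symbol, and Hp has none in that table. Capitals mark matches to the C/EBP motif TTNNGNAA on either strand. The Lcn2 window is chr2:32387690-32387989, minus strand. The Saa3 window is chr7:46715627-46715926, minus strand. The Saa1 window is chr7:46742931-46743230, minus strand.
Lcn2: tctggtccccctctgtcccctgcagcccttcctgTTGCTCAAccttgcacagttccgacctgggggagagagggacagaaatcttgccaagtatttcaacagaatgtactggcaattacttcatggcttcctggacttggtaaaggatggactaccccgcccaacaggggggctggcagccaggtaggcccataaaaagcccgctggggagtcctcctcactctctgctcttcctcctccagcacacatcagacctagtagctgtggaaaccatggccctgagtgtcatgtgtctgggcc
Saa3: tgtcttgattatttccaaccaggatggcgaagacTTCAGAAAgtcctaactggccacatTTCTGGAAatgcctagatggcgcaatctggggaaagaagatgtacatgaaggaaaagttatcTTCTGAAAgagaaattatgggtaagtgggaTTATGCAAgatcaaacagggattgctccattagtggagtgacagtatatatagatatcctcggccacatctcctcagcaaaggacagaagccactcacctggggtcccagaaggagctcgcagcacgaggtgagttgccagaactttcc
Saa1: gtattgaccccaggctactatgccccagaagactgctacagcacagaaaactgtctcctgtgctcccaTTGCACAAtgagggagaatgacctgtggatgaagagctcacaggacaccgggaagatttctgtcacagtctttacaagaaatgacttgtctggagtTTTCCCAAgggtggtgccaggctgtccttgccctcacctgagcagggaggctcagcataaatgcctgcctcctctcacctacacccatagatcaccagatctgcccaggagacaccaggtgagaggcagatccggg

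The Lcn2 window holds 1 match to the C/EBP motif and the Saa3 window holds 4. At least 1 match is present in 40.7% of the 32851 promoters in the RefSeq table, and 4 or more in 0.852% of them. The Saa3 matches lie 216, 191, 129 and 99 bases before the start site, counting to the first base of each, and the Lcn2 match lies 216 bases before it. None of these 3 windows holds the NF-kB consensus, which 8.46% of promoters hold, or the STAT motif TTCNNNGAA, which 8.30% hold. None holds the AP-1 motif TGANTCA, present in 7.81% of promoters, or the HIF core ACGTG or GCGTG, present in 43.8%. Among 1796 promoters of tested genes the shares were 33.5% for C/EBP, 10.4% for NF-kB and 6.79% for STAT. For AP-1 and HIF they were 6.29% and 60.9%. Both strands were searched, and none of the C/EBP matches shown overlaps a match to another of these motifs. A match describes letters only; binding was not measured in these samples.

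Before the values of single genes, the labels were set against the targets of hypoxia-inducible factor (HIF), which accumulates when oxygen is low. Of 24 HIF targets on a list, 14 are in the table, of which limma called 13 lower and 1 higher in the libraries labelled hypoxia. The glucose transporter Slc2a1 averaged 7.72 ± 0.12 on the log2(value + 1) scale in libraries labelled hypoxia and 10.85 ± 0.10 in libraries labelled normoxia (SD, n = 3 each). As these genes go against the labels, directions below are by label only, and a higher level "under the hypoxia label" says nothing of the oxygen the cells had. The table holds genes that its authors chose for change between these same libraries, which also sets the background: 79.4% of tested genes were called higher under the hypoxia label by limma, and 20.6% lower. Adjusted p-values of deposited differences below come from genes chosen this way, so they are no separate evidence of a change. Trimmed mean scaling takes most listed genes as unchanged. The deposited values do not meet this, as no deposited difference is smaller than 1.00 in either direction. The scaling moved the median difference of tested genes from 1.15 to 0.0036. A call kept or ended with it below therefore reflects a gene's deposited difference and level, and is no separate test. After this scaling, 26.4% of tested genes were called higher and 24.9% lower. Both shares are over all tested genes, of which 20.6% were lower as deposited. They are thus no like background for lists whose genes were all higher as deposited. The linear values of all listed genes summed to 161067 to 166071 per library labelled hypoxia and 175405 to 183535 per library labelled normoxia. The depth per library is unknown.

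Lcn2 (ENSMUSG00000026822, chromosome 2, protein coding) was the gene with the largest difference in the table. Its linear values were 1201, 1168 and 1261 in hypoxia replicates 1, 2 and 4, against 47.7, 17.96 and 13.9 in normoxia replicates 2, 3 and 4. The linear unit has no name in the file. On the log2(value + 1) scale these are 10.23, 10.19 and 10.30 under the hypoxia label, against 5.61, 4.24 and 3.90 under the normoxia label. The libraries labelled hypoxia lie close together, while normoxia replicate 2 stands well above the other normoxia libraries, and the groups do not overlap. The means were 10.24 ± 0.06 and 4.58 ± 0.90 (SD, n = 3 each), a difference of 5.66 ± 0.52 (standard error, hypoxia minus normoxia label).

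Saa3 (ENSMUSG00000040026, chromosome 7, protein coding) had linear values of 2464, 2263 and 2485 in hypoxia replicates 1, 2 and 4, against 67.0, 58.1 and 50.02 in normoxia replicates 2, 3 and 4. On the log2(value + 1) scale it was at 11.27, 11.14 and 11.28 under the hypoxia label, against 6.09, 5.89 and 5.67 under the normoxia label. Each group is tight and they lie far apart, with normoxia replicate 2 again the highest of its group by a smaller margin. The means were 11.23 ± 0.07 and 5.88 ± 0.21 (SD, n = 3 each), a difference of 5.35 ± 0.13.

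Hp (ENSMUSG00000031722, chromosome 8, protein coding) had linear values of 102.0, 95.5 and 107.8 in hypoxia replicates 1, 2 and 4, against 1.89, 1.91 and 2.25 in normoxia replicates 2, 3 and 4. On the log2(value + 1) scale it was at 6.69, 6.59 and 6.77 under the hypoxia label, against 1.53, 1.54 and 1.70 under the normoxia label. Here normoxia replicate 2 was the lowest of its group, not the highest. The means were 6.68 ± 0.09 and 1.59 ± 0.10 (SD, n = 3 each), a difference of 5.09 ± 0.07. In a bulk sample, more cells expressing a gene and more RNA per cell cannot be told apart. For each of the 3 genes the libraries of the 2 labels do not overlap, which holds for 99.9% of the listed genes in either direction and for 79.3% in the direction of these 3, and follows from how the table was chosen.

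**Figure D1:**
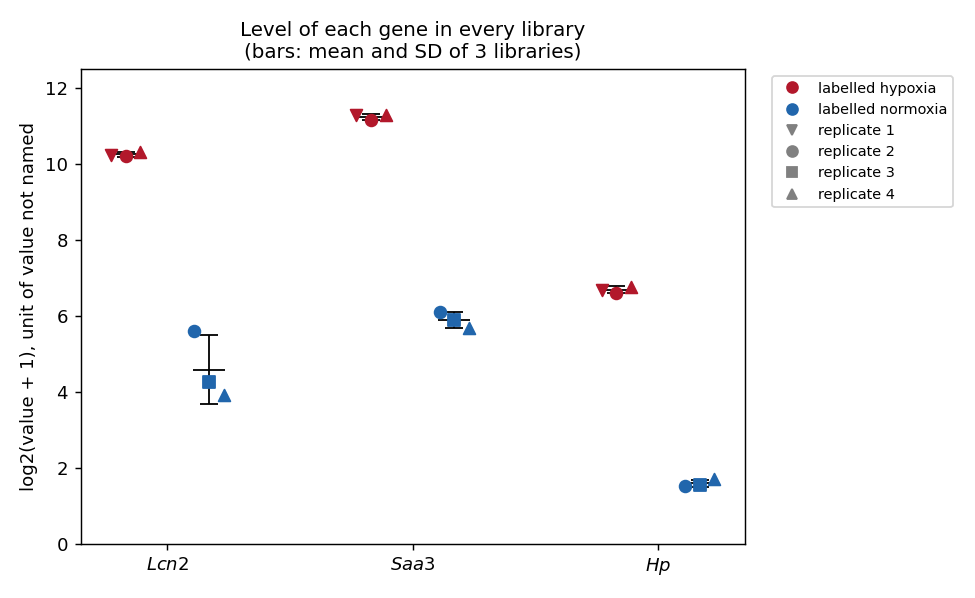
Level of Lcn2, Saa3 and Hp on the log2(value + 1) scale in each library, labelled hypoxia in red and labelled normoxia in blue, with replicate number by symbol and the mean and SD of 3 libraries as bars. The libraries of a label sit together for Saa3 and Hp, while Lcn2 spreads from 3.90 to 5.61 under the normoxia label.

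By difference on the log2(value + 1) scale, Lcn2, Saa3 and Hp ranked 1, 2 and 3 of 2056 tested genes. They head the authors' deposited list of the 15 largest rises by the same values, as its fold changes equal these differences. The next gene, the neutrophil-attracting chemokine Cxcl5, had a difference of 4.56. As ratios of mean linear values the order was another: 50.5 for Hp, 45.6 for Lcn2 and 41.2 for Saa3. These were also the 3 highest ratios among the 1926 tested genes with a normoxia mean of at least 1, followed by Cxcl5 at 23.9. Over single libraries, the ratio of the lowest hypoxia value to the highest normoxia value was 42.5 for Hp, 33.8 for Saa3 and 24.5 for Lcn2. The ratio of the highest hypoxia value to the lowest normoxia value was 57.2 for Hp, 49.7 for Saa3 and 90.4 for Lcn2. The place of Lcn2 in that order therefore depends on its spread between normoxia libraries. The order of Hp and Saa3 depends on the scale: the difference of Hp was the larger with a pseudocount of 0.1 (5.59 for Hp and 5.37 for Saa3) and the smaller with one of 5 (3.93 for Hp and 5.26 for Saa3). Without normoxia replicate 2 the ratio of Lcn2 was 75.9, against 45.6 with it, while Saa3 came to 44.5 and Hp to 49.0.

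The scale between libraries moved all 3 differences. Scaling by a trimmed mean of log ratios put the median difference of all tested genes at 0.0036, against 1.15 as deposited. With it the differences were 4.38 for Lcn2, 4.06 for Saa3 and 3.98 for Hp, and their ranks were again 1, 2 and 3. Set against the median gene, Lcn2 stood 4.38 above it with this scaling and 4.51 above it as deposited. Saa3 stood 4.05 above it with the scaling and 4.20 as deposited, and Hp stood 3.98 and 3.94 above it. Quantile normalization gave 5.72 for Lcn2, 5.55 for Saa3 and 4.37 for Hp, where Hp ranked 4. Hp, whose normoxia values are near the pseudocount, depended most on it, ranking 3 with a pseudocount of 0.1 and 6 with one of 5. With a pseudocount of 0.1 Lcn2 ranked 2 and Saa3 ranked 4, so a gene outside the 3 had the largest difference there.

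**Figure D2:**
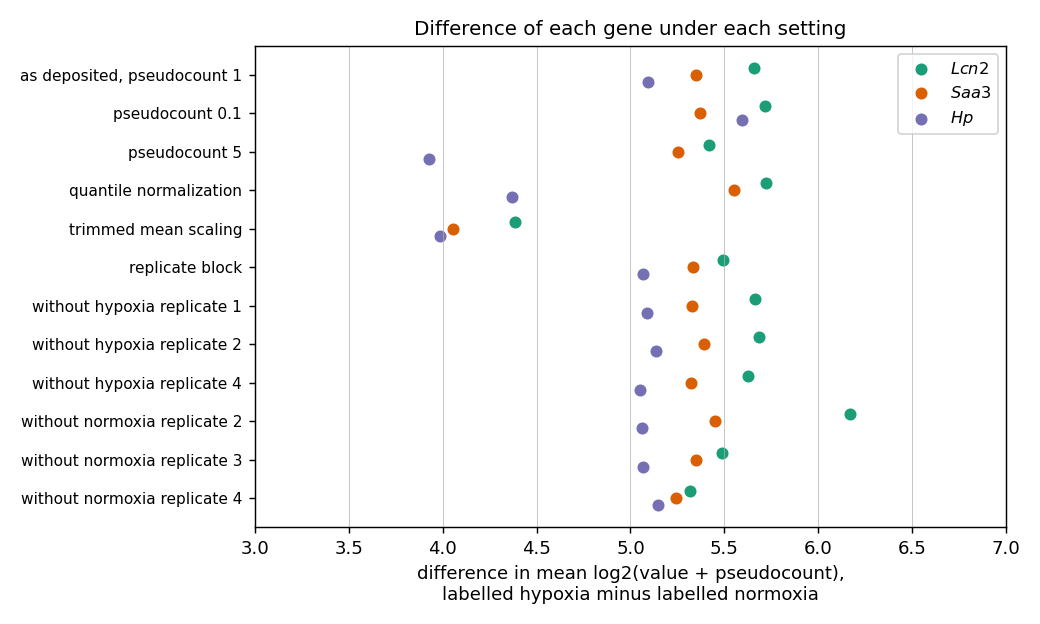
Difference of Lcn2, Saa3 and Hp (labelled hypoxia minus labelled normoxia) on the log2(value + pseudocount) scale under each setting listed on the vertical axis. Every difference lies above 3.9; those of Hp fall furthest with a pseudocount of 5, and that of Lcn2 reaches 6.17 without normoxia replicate 2.

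Within the normoxia label, Lcn2 varied more than nearly all other genes. Its SD of 0.90 ranked 6 of 2056 tested genes, where the median gene had 0.137. Its linear values spanned 3.42-fold under that label, with a coefficient of variation of 69.5%, and 1.08-fold with 3.87% under the hypoxia label. Saa3 spanned 1.34-fold and Hp 1.19-fold under the normoxia label, and 1.10-fold and 1.13-fold under the hypoxia label. A larger normoxia SD than that of Saa3 was found in 24.2% of tested genes, and a larger one than that of Hp in 70.9%. Under the hypoxia label the SD of Lcn2, 0.06, was below the median gene's 0.073.

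Normoxia replicate 2 stood apart beyond Lcn2. It was the highest of the 3 normoxia libraries in 62.8% of tested genes, and in 72.4% of the genes that were higher under the hypoxia label. This library lay above its label mean in 84.4% of the genes higher under the hypoxia label, but in 35.0% of the lower ones. The deviation of Lcn2 in it, 1.02 above its label mean on the log2(value + 1) scale, ranked 4 of 2056 tested genes. That of Saa3, 0.21, ranked 398, and that of Hp, -0.06, ranked 1759. Among genes with a mean linear value of at least 5 under the normoxia label, Lcn2 ranked 2 by that SD, after the glycosyltransferase gene Extl2; the collagen gene Col3a1 ranked 4, with an SD of 0.72. Col3a1 was at 5.21, 3.77 and 4.49 in normoxia replicates 2, 3 and 4, so it too was highest in replicate 2, while Extl2 was highest in replicate 3, at 4.26. Normoxia replicates 2, 3 and 4 are also the libraries whose descriptions state 24, 25 and 26 h. The part of either in the spread of Lcn2 was not tested.

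**Figure D3:**
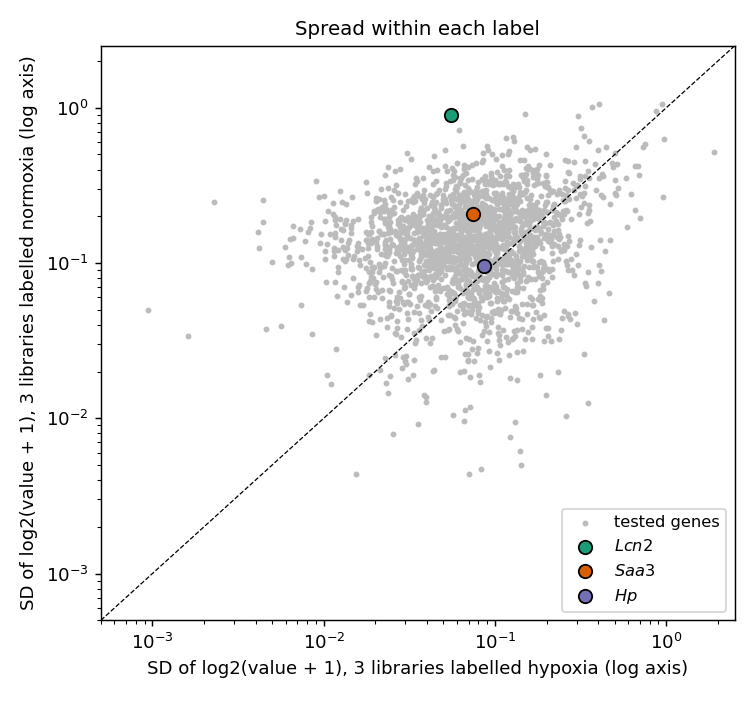
SD of log2(value + 1) over the 3 libraries labelled hypoxia (horizontal, log axis) against that over the 3 libraries labelled normoxia (vertical, log axis) for tested genes in grey, leaving out 4 genes with an SD of 0, and for Lcn2, Saa3 and Hp in colour; the dashed line marks equal SDs. Lcn2 lies at 0.06 and 0.90, far above the line, while Hp lies close to it.

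Genes were ranked by how like their pattern was to each of the 3, as the root mean square difference over the 6 libraries after each gene was centred on its own mean. This measure is dominated by the difference between the labels, by which the 3 genes were chosen, so it mainly lists genes with differences of like size and is a description only. Saa3 and Hp were each other's closest gene, at 0.21. Lcn2 was closest to Saa3, at 0.44, and then to Hp, at 0.63. The remaining places among the nearest 5 went to the chemokines Cxcl5, Cxcl2 and Ccl2, which draw in neutrophils and monocytes, and, for Hp, to the cytokine gene Il6. Cxcl5 lay 0.34 from Hp, 0.40 from Saa3 and 0.70 from Lcn2. Cxcl2, at 8.23 ± 0.15 under the hypoxia label and 3.91 ± 0.56 under the normoxia label (SD, n = 3 each), was the one of them with a wide normoxia spread. Pearson's r does not separate such genes either: it was at least 0.99 with Saa3 for 936 tested genes, because the table was chosen for a difference between the same libraries.

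In the genome the 3 genes lie on different chromosomes. Of the 5 nearest protein-coding genes on each side, in RefSeq's order on GRCm38.p6, 0 of 10 around Lcn2 and 0 of 10 around Hp are in the table. Around Saa3, 1 of 10 is: Saa1, an acute-phase amyloid gene made mainly in the liver. The table holds only genes chosen for change, so these counts say nothing of the level of absent neighbours. Saa1 was at 1.71, 1.32 and 0.82 on the log2(value + 1) scale in hypoxia replicates 1, 2 and 4, against 0.10, 0.10 and 0.06 in normoxia replicates 2, 3 and 4. The groups do not overlap, but Saa1 did not pass the filter on low values and was not tested. Of the 560 stretches of 50 bases in its shortest coding transcript, 83 also occur in transcripts of another gene. Over all stretches of Saa1 this holds for 793 of 2519, each of them found in other Saa genes. Its level is thus uncertain as that of a single gene. For Saa3 the same counts are 9 of 506 and 93 of 2602. In the shortest coding transcripts of Lcn2 and Hp it holds for none of 859 and 1296, in GENCODE vM21. Transcripts of the 3 genes are short: the longest coding transcript has 915 bases for Lcn2, 1345 for Hp and 2200 for Saa3, where the median of tested genes is 3122 bases.

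Of 11 cytokines known to induce acute-phase genes, 4 are in the table, and all 4 rose under the hypoxia label by limma's test, with a median difference of 2.11 where that of all tested genes was 1.15. Limma called 79.4% of all tested genes higher and 20.6% lower, that is every one of the 2056, so 4 of 4 is close to what the table gives at large. With trimmed mean scaling 3 of the 4 were called higher, beside 26.4% of all tested genes, which is no separate test. Il6, the main inducer of acute-phase genes in liver, was at 6.48, 6.59 and 6.75 in hypoxia replicates 1, 2 and 4, against 2.83, 2.46 and 2.55 in normoxia replicates 2, 3 and 4. Its difference was 3.99 ± 0.12 (limma, Benjamini-Hochberg adjusted p = 1.1e-08). The Il6 relatives Lif and Il11 rose by 2.22 ± 0.09 and 2.00 ± 0.10. Il33, an alarmin of the interleukin 1 family, rose by 1.28 ± 0.12, a call that trimmed mean scaling ended (difference 0.02; limma, adjusted p = 0.84). Il1b, Tnf and Il17a are among the 7 outside the table and were not analysed here.

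Of 16 receptors and adaptors for these signals, 9 are in the table, and all 9 rose as deposited, beside 79.4% of all tested genes, with a median difference of 1.57. With trimmed mean scaling 5 of the 9 were still called higher, beside 26.4% of all tested genes, which is no separate test. The interleukin 1 receptor Il1r1 rose by 2.11 ± 0.14, and Tlr2, a receptor for bacterial lipoproteins, by 1.98 ± 0.09. Myd88, the adaptor shared by both, rose by 1.60 ± 0.10, the oncostatin M receptor Osmr by 1.59 ± 0.11 and the interleukin 17 receptor Il17ra by 1.57 ± 0.09. These 5 are the ones still called with trimmed mean scaling, and they are also those with the largest deposited differences of the 9. Il6st, which encodes gp130, the signalling chain shared by the interleukin 6 family, had a difference of 1.27 ± 0.09, and that call ended with the scaling (0.01; limma, adjusted p = 0.94). So did those of Tlr4, Il1rap and Traf3ip2, whose differences lay between -0.05 and 0.09 with it.

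Of 20 regulators of acute-phase genes, 11 are in the table, and all 11 rose as deposited, beside 79.4% of all tested genes, with a median difference of 1.78. With trimmed mean scaling 8 of the 11 were still called higher, beside 26.4% of all tested genes, which is no separate test. The largest was that of Zc3h12a, the RNase regnase-1, which degrades Il6 mRNA, at 5.97 ± 0.07 under the hypoxia label and 2.53 ± 0.43 under the normoxia label (SD, n = 3 each; difference 3.44 ± 0.19). Nfkbiz encodes IkB-zeta, a nuclear partner of NF-kB that mouse macrophages need to induce Lcn2; it rose by 2.36 ± 0.09. Socs3, the feedback inhibitor of STAT3 signalling, rose by 2.21 ± 0.11. Bcl3, another nuclear partner of NF-kB, rose by 1.89 ± 0.17 and Cebpd, the C/EBP factor most induced in the acute phase, by 1.87 ± 0.14. Nfkb1 rose by 1.78 ± 0.09 and Cebpa by 1.20 ± 0.10. The calls of Nfkbia, the NF-kB inhibitor IkB-alpha, Jak2 and Relb ended with trimmed mean scaling, with differences of 0.01, -0.03 and -0.20. Over the cytokines, receptors and regulators tested, 19 of 24 were highest among the normoxia libraries in replicate 2, as Lcn2 and Saa3 were, beside 72.4% of all genes higher under the hypoxia label.

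**Figure D4:**
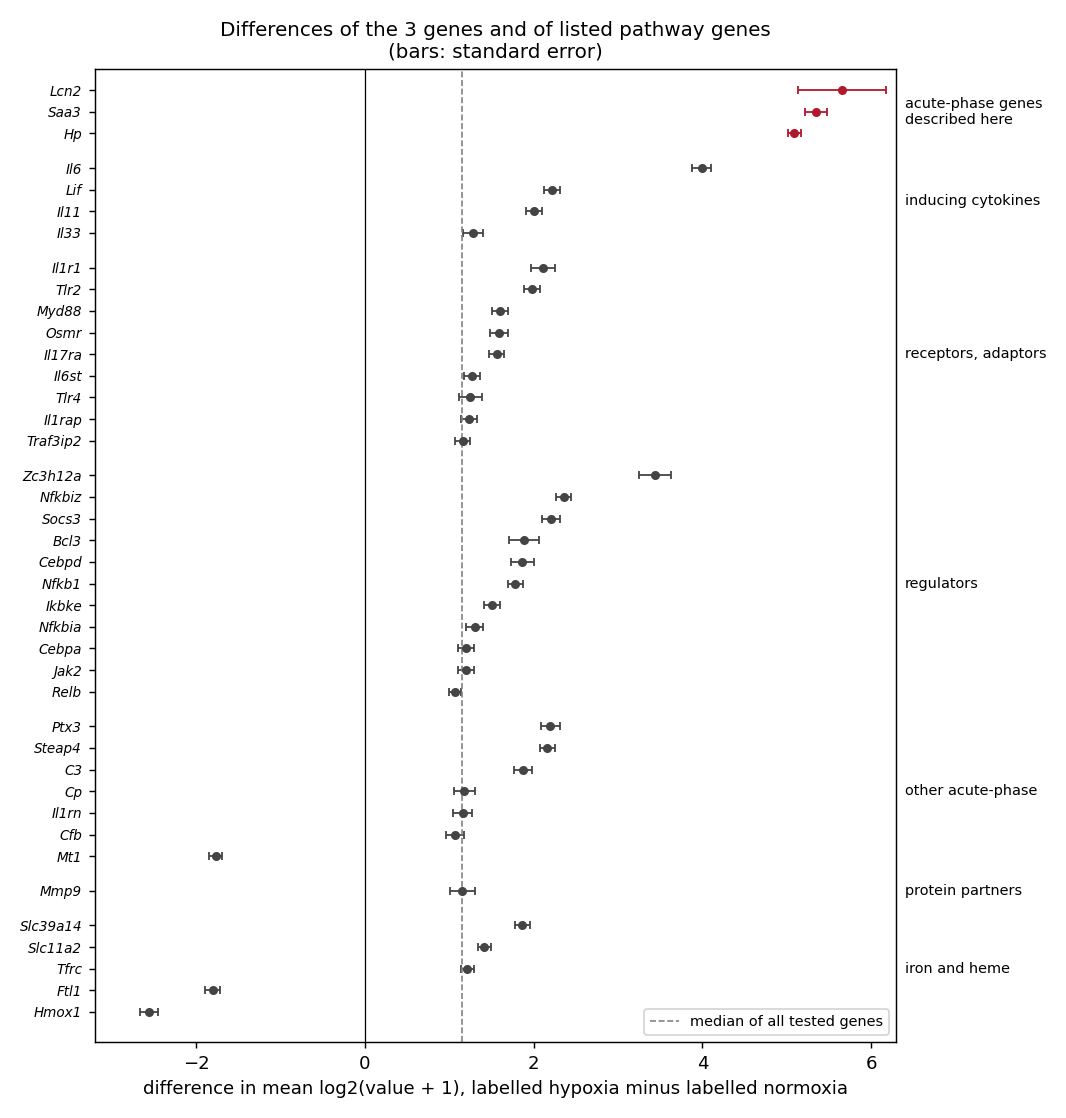
Difference in mean log2(value + 1), labelled hypoxia minus labelled normoxia, for Lcn2, Saa3 and Hp (red; bars are the standard error from the SDs of both labels) and for tested genes of the lists, leaving out 1 acute-phase gene (grey; bars are limma's standard error), with the median of all tested genes dashed at 1.15. The next of the genes drawn is Il6 at 3.99, and Mt1, Hmox1 and Ftl1 lie below 0.

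Of 35 other genes induced in the acute phase, most of them for secreted proteins, 9 are in the table and 8 were tested. Of these, 6 rose and 2 fell under the hypoxia label, with a median difference of 1.17, which is near the background of 79.4% higher and 20.6% lower and is no result about the list. The long pentraxin Ptx3 rose by 2.20 ± 0.11, the metalloreductase Steap4, which inflammation induces in fat, by 2.16 ± 0.09, and complement component C3 by 1.87 ± 0.11. The interleukin 1 receptor antagonist Il1rn rose by 1.16 ± 0.12. These 4 were still called with trimmed mean scaling, and ceruloplasmin, Cp, and complement factor Cfb were not (differences -0.10 and 0.20). Steap4 and Il1rn passed the filter on low values only through libraries labelled hypoxia, so their direction was fixed in advance. The metallothionein Mt1, which binds zinc and copper, was at 10.56 ± 0.04 under the hypoxia label and 12.33 ± 0.09 under the normoxia label (SD, n = 3 each; difference -1.77 ± 0.08; limma, adjusted p = 5.3e-08). The remaining 26, among them Saa2, Crp and Orm1, were not analysed here.

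Few receptors or partners of the 3 proteins can be followed: of 16 listed, 1 is in the table. It is Mmp9, the gelatinase that lipocalin 2 binds in human neutrophils. Mmp9 was at 1.66, 1.05 and 1.15 on the log2(value + 1) scale in hypoxia replicates 1, 2 and 4, against 0.11, 0.16 and 0.12 in normoxia replicates 2, 3 and 4. Its difference was 1.16 ± 0.15, at values near the pseudocount. Only libraries labelled hypoxia took Mmp9 past the filter on low values, so its direction was fixed in advance and its call is no support. The lipocalin 2 receptor Slc22a17 and the haptoglobin receptor Cd163 were not analysed here.

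Lipocalin 2 and haptoglobin both bear on iron, and of 12 iron and heme genes 5 are in the table, 3 called higher and 2 lower under the hypoxia label, beside 79.4% and 20.6% of all tested genes. The importer Slc39a14, which interleukin 6 induces in mouse liver, rose by 1.87 ± 0.09 and was still called with trimmed mean scaling. The importer Slc11a2 and the transferrin receptor Tfrc rose by 1.42 ± 0.07 and 1.22 ± 0.07, calls that ended with it (0.15 and -0.06). Hmox1, which degrades heme, was at 9.37 ± 0.13 under the hypoxia label and 11.93 ± 0.17 under the normoxia label (SD, n = 3 each; difference -2.56 ± 0.11). The ferritin light chain Ftl1 changed by -1.80 ± 0.09; it has many processed copies in the mouse genome, so its reads are uncertain.

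Markers of other cells that make these proteins were looked for in the table. Of 14 neutrophil markers 1 is listed, Camp, with linear values of 2.18 to 2.42 in libraries labelled hypoxia and 0.617 to 0.638 in libraries labelled normoxia. Only libraries labelled hypoxia took Camp past the filter on low values, so its direction was fixed in advance. Of 12 macrophage markers 1 is listed, Cd68, with 7.12 to 9.07 under the hypoxia label and 22.7 to 26.4 under the normoxia label, so it moved against the 3 genes. Of 12 hepatocyte markers 0 are listed, and of 10 adipocyte markers 1 is, Cebpa, with linear values of 4.03 to 4.59 under the hypoxia label and 1.18 to 1.47 under the normoxia label. Their part in the levels of Lcn2, Saa3 and Hp was not tested. Of 14 osteocyte and osteoblast markers 6 are listed, 5 called higher under the hypoxia label and 1 lower, as deposited and with trimmed mean scaling. Beside these stand 79.4% and 20.6% of all tested genes as deposited, and 26.4% and 24.9% with the scaling. As deposited the count is near that background, and the count with the scaling is no separate test, so neither is a result about these markers. Podoplanin, Pdpn, was at 8.00 ± 0.05 under the hypoxia label and 6.24 ± 0.09 under the normoxia label (SD, n = 3 each). The lower one, the osteogenic transcription factor Runx2, was at 3.31 ± 0.19 under the hypoxia label and 4.34 ± 0.15 under the normoxia label (SD, n = 3 each), while Dmp1 and Sost were not analysed here.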

How the data were processed

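Messenger RNA from MLO-Y4 cells was sequenced in 6 libraries. Per the labels' protocols, RNA was treated with DNase before a stranded mRNA library preparation. FastQC 0.12.0, DRAGEN and build GRCm39 (mm39) are named, without settings, per the submitters' processing notes. The authors deposited log2 entries per library for 2065 genes; 2 to the power of each entry minus 1 is a whole number of thousandths for 100% of entries (tolerance 0.001 of a thousandth), so they were read as log2(value + 1) with a pseudocount of 1. No source used here gives the linear unit or the scaling. Differences of mean entries equal the authors' deposited log2 fold changes, whose absolute value is at least 1.00 for every gene. Adjusted p-values deposited by the authors were not used. Another 21 columns of per-sample values were not used (18 repeats of library values, 3 for mice outside the series).

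The 3 genes and the gene lists were chosen with earlier results of these data known. Other genes were named when on a list, among the nearest 5 patterns to one of the 3, or among the 5 largest normoxia SDs at a mean linear value of at least 5; predicted genes were not named, and 1 tested acute-phase gene that is in the counts is not reported here by name. The 2056 genes that reached a linear value of 1 in 3 or more libraries were tested with limma 3.58.1 in R 4.3.3, with trend and robust estimation, on log2(value + 1), two-sided, Benjamini-Hochberg adjusted over all tested genes, at a threshold of 0.05. The test was checked on simulated data in which most genes were unchanged. That check does not cover a table of genes chosen for change, such as this one. Standard errors of Lcn2, Saa3 and Hp come from the SDs of both labels, and those of other genes from limma. Differences understate the change of low genes. Promoters and gene order came from RefSeq (GRCm38.p6) and transcripts from GENCODE vM21, which precede GRCm39.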

Additional observations from a re-analysis of the deposited data

How the results depend on the processing

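Of 273 values under the alternatives, 260 stayed within the replicate SD (differences) or within 1.5 times (counts) and 0 reversed. Most of these values are counts from a table in which every tested gene was called as deposited. The threshold, the trend setting or leaving out a library could hardly move such counts, so the total is no measure of robustness. Trimmed mean scaling gave differences of 4.38 for Lcn2, 4.06 for Saa3 and 3.98 for Hp, counts of 543 called higher of all tested genes (1633 as deposited), 5 receptors and adaptors, 1 iron and heme gene and 0 HIF targets, and 51.5% higher among all called genes. Quantile normalization gave 5.55 for Saa3 and 4.37 for Hp. The difference of Hp was 5.59 with a pseudocount of 0.1 and 3.93 with one of 5. A filter of 5 left 3 acute-phase genes and 0 partners called higher, as fewer genes were tested. Leaving out each library in turn gave 5.32 to 6.17 for Lcn2, 5.24 to 5.45 for Saa3 and 5.05 to 5.15 for Hp, and called 1632 to 1633 genes higher and 419 to 423 lower. Replicates 2 and 4 are numbered under both labels. Deviations of same-numbered libraries correlated at 0.08 and -0.07 over tested genes. These values cannot tell whether same-numbered libraries shared a culture or preparation, which the labels do not state. A replicate block gave 5.49 for Lcn2, 5.33 for Saa3 and 5.06 for Hp. Unknown depth leaves the counting error of Hp and Saa1, at low normoxia values, without a bound.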
